A study of Mus musculus with 20 samples.

Results

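A set of 10 genes of steroid hormone synthesis was followed across 10 mouse tissues, with and without DHEA. They were taken by symbol from a table of 24826 genes: Star, Cyp11a1, Cyp17a1, Hsd3b1, Hsd3b5, Cyp19a1, Fdx1, Fdxr, Srd5a1 and Nr5a1. All 10 were found, each on 1 row. The series holds 20 bulk RNA-seq libraries, 1 of each treatment in ovary and uterus, in thymus and spleen, in heart, lung and brain, and in liver, intestine and kidney. The mice were wild type ("WT") in both groups. One group received DHEA (dehydroepiandrosterone, a precursor of androgens and oestrogens), and the group labelled "sasame oil" is called control here. The sources used here do not give the dose, duration, age, strain, stage of the oestrous cycle or number of mice, nor which tissues shared an animal. The libraries held 13206931 to 20710011 reads.

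Steroid hormones are made from cholesterol in a series of steps. Star carries cholesterol into the mitochondrion, and Cyp11a1 cuts its side chain to give pregnenolone, with electrons passed from Fdxr through Fdx1. Enzymes of the Hsd3b family turn pregnenolone into progesterone and DHEA into androstenedione. Cyp17a1 makes the androgen precursors, Cyp19a1 (aromatase) makes oestrogens from androgens, and Srd5a1 reduces testosterone to dihydrotestosterone. Nr5a1 (steroidogenic factor 1) is a transcription factor that drives many of these genes. In the ovary, theca cells make androgens, granulosa cells of growing follicles convert them to oestrogens, and the corpus luteum makes progesterone.

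The ovary held the main differences. The steps that begin synthesis (Star, Cyp11a1, Fdx1, Fdxr) were lower in the DHEA ovary, by 13.03-fold for Star and 2.16-fold for Fdxr. Cyp19a1, at the oestrogen end, was 6.53-fold higher. In liver, Hsd3b5 was 45.8-fold higher. Levels are FPKM, that is, reads scaled to gene length and library size. A member was counted as higher or lower in a tissue when the ratio of FPKM + 1 was at least 2-fold and the mean of its 2 libraries was at least 5 FPKM. Of 100 combinations of member and tissue, 24 reached that mean, and of these 2 were higher, 4 were lower and 18 lay between. In 27 combinations neither library had a read, and in 13 one of the libraries had none. Each tissue has 1 library per treatment, and the ratios within a tissue carry no p-value. Intervals are exact 95% intervals from the reads behind each value. They cover counting error only, not differences between mice.

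Promoters of Cyp11a1 and Cyp19a1 are shown because these genes differed in opposite directions in the ovary, and because Nr5a1 and its relative Nr5a2 are known to bind the letters AGGTCA. The sequences are the 250 bases before an annotated start, from RefSeq (GRCm38.p6), written along the gene's strand. Capitals mark AGGTCA, or its reverse complement where the match lies on the other strand. Cyp11a1 has 2 starts in that table and Cyp19a1 has 3, and the window with a match is printed for each.
Cyp11a1, second start, chr9:58014702-58014951, plus strand: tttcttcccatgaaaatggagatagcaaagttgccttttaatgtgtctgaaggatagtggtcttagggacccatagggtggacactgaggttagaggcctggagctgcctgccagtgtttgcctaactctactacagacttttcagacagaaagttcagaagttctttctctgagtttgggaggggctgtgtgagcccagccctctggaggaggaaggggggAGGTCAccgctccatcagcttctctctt
Cyp19a1, first start, chr9:54268165-54268414, minus strand: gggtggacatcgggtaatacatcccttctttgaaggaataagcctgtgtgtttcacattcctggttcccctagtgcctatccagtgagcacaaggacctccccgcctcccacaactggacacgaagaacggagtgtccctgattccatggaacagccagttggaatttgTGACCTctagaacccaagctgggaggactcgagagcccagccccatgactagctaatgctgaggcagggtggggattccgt
The match lay at -28 to -23 from the start in Cyp11a1 and at -81 to -76 in Cyp19a1. Both strands were searched. Of the 10 promoters found for 7 members, these 2 held AGGTCA and 0 held the longer form CAAGGTCA, of which AGGTCA is a part. Among all 32851 promoters of the table the shares were 14.0% and 1.33%. With 10 promoters, the counts are near those shares and say nothing particular of the members. Star, Cyp17a1 and Nr5a1 were not in the table. Values per gene do not tell which start was used, and a match is not evidence of binding.

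**Figure D1:**
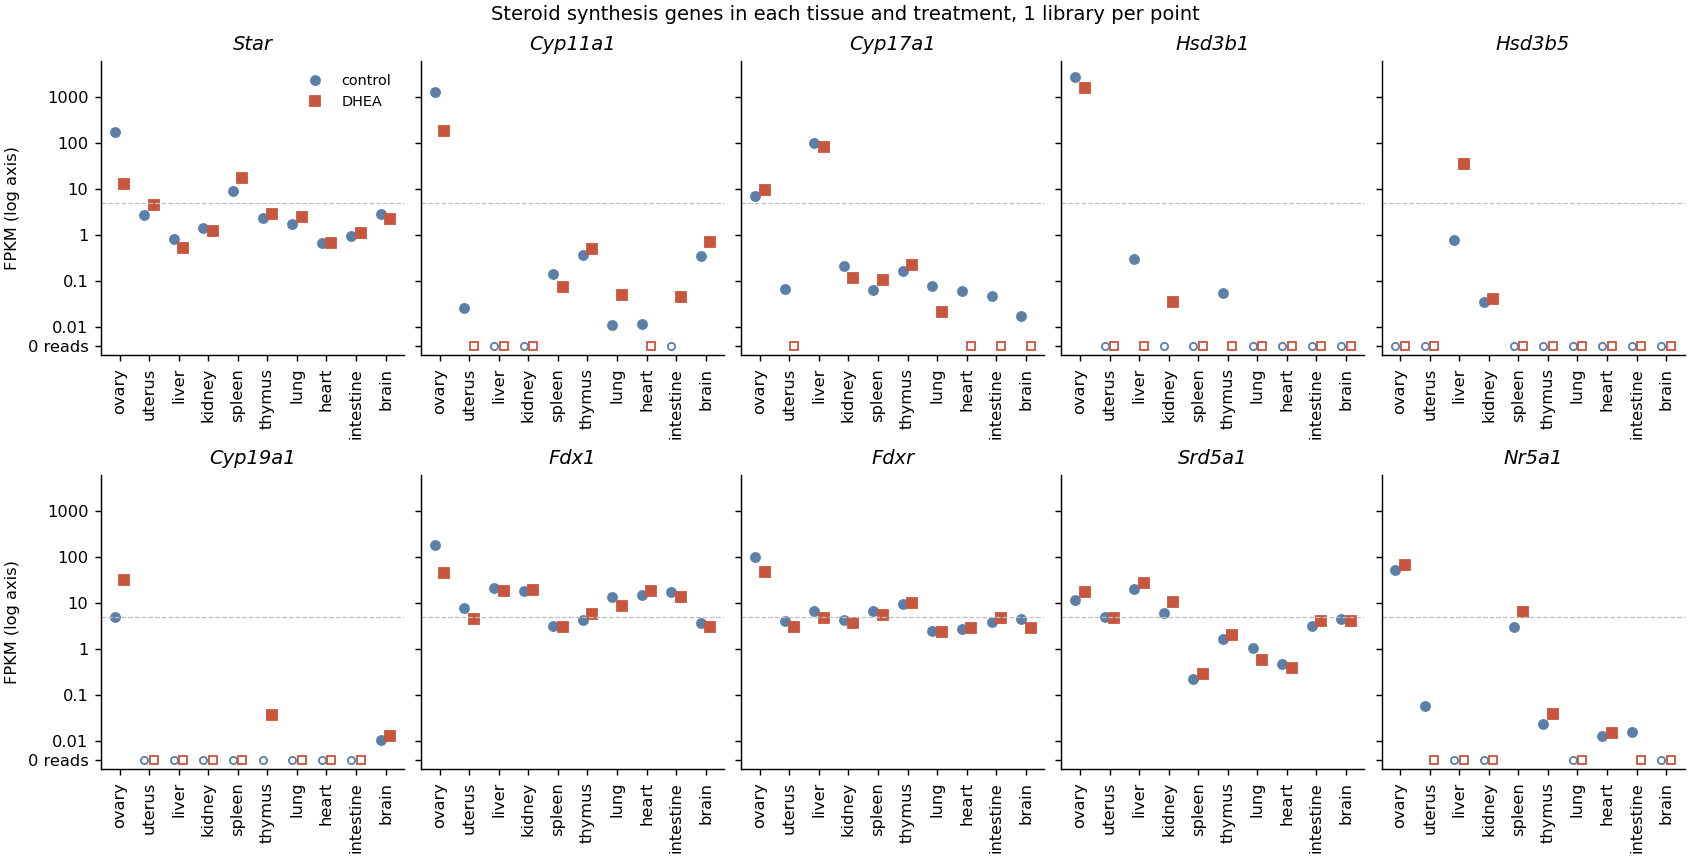
Level of each member (FPKM, log axis) in the 10 tissues, with circles for control and squares for DHEA libraries. Open marks at the bottom are libraries with 0 reads, and the dashed line is 5 FPKM. Fdx1 and Fdxr had reads in all 20 libraries, whereas Hsd3b1 reached 1 FPKM in the 2 ovary libraries alone.

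The members differed in how widely they were detected. Star, Fdx1, Fdxr and Srd5a1 had reads in all 20 libraries, Cyp17a1 in 16, Cyp11a1 in 13, Nr5a1 in 10, Hsd3b1 and Cyp19a1 in 5 and Hsd3b5 in 4. At 1 FPKM or more, Fdx1 and Fdxr were found in 20 libraries, Star and Srd5a1 in 15, Cyp17a1 and Nr5a1 in 4, Cyp11a1, Hsd3b1 and Cyp19a1 in 2, and Hsd3b5 in 1. In the control libraries 7 members were highest in ovary. Cyp17a1, Srd5a1 and Hsd3b5 were highest in liver. Hsd3b1 and Cyp11a1 are read as ovary transcripts in these libraries: ovary held 99.99% and 99.9% of their FPKM summed over the control tissues. Srd5a1 was the most evenly spread, with 37.4% of its summed control FPKM in liver.

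Star had the lowest ratio of DHEA to control. In ovary it was at 171 FPKM (13134 reads) in control and 13.1 FPKM (809 reads) in DHEA, which is 13.03-fold lower (95% interval 12.1 to 14.0). By FPKM it was the gene at rank 180 in the control ovary and at rank 4259 in the DHEA ovary. The control ovary stood 19.2-fold above spleen, the next tissue, whereas under DHEA the order was different: spleen (17.1 FPKM) was above ovary (13.1 FPKM). No other member had a different highest tissue in the DHEA libraries. In the remaining 8 tissues Star lay between 0.664 and 2.86 FPKM in control and between 0.530 and 4.51 FPKM in DHEA, so its level in the DHEA ovary stayed above all of these.

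Cyp11a1, which starts the pathway by side-chain cleavage, was at 1256 FPKM (112875 reads) in the control ovary and 183 FPKM (13224 reads) in the DHEA ovary. It was 6.85-fold lower (6.73 to 6.98). Its rank moved from 11 to 160, and its share of all ovary reads from 0.610% to 0.0890%. Outside the ovary no library reached 1 FPKM. Brain had 36 reads in control and 58 in DHEA, which is 0.359 and 0.726 FPKM (2.02-fold higher, 1.31 to 3.16), and thymus had 35 and 42 reads. Liver and kidney had 0 reads in either library.

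Its electron donors were lower in the DHEA ovary by less. Fdx1 (ferredoxin) went from 179 to 45.8 FPKM, 3.92-fold lower (3.74 to 4.11). Fdxr (ferredoxin reductase) went from 101 to 47.0 FPKM, 2.16-fold lower (2.05 to 2.27). The transcripts of Star and of the side-chain cleavage genes thus differed in size of ratio: Star most, then Cyp11a1, Fdx1 and Fdxr. Their counting intervals do not overlap in this pair of libraries. These do not cover differences between mice, and the order was not tested. The FPKM ratio of Fdx1 to Fdxr was 1.77 in control and 0.974 in DHEA, and that of Cyp11a1 to Star 7.36 and 14.0.

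Hsd3b1, the next enzyme, remained one of the most abundant transcripts. It was at 2653 FPKM (92053 reads) in the control ovary and 1548 FPKM (43111 reads) in the DHEA ovary, ranks 5 and 9. The ratio was 1.71-fold lower (1.69 to 1.73), under the 2-fold limit. Hsd3b1 to Cyp11a1 was 2.11 in control and 8.44 in DHEA. In all, 5 libraries had a read of Hsd3b1, and outside the ovary the most were 11 reads in control liver, against 0 in DHEA liver (at least 2.97-fold lower, against a floor of 3 reads). Hsd3b genes are near-identical in sequence and the sources used here do not say how reads that match several genes were handled, so such low counts may hold reads of another copy.

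The later steps did not follow the first ones. Cyp19a1 was at 4.95 FPKM (419 reads) in the control ovary and 32.4 FPKM (2197 reads) in the DHEA ovary, 6.53-fold higher (5.88 to 7.27). Cyp17a1, which stands before it, was at 7.26 and 9.72 FPKM (1.34-fold higher, 1.16 to 1.54). Cyp19a1 was below Cyp17a1 in control and above it in DHEA, with a ratio of 0.682 and 3.33. Srd5a1, which competes with aromatase for androgens, was at 11.7 and 17.3 FPKM (1.48-fold higher, 1.33 to 1.65). It exceeded Cyp19a1 2.36-fold in control and was 0.535 times Cyp19a1 in DHEA. Nr5a1 was at 51.7 and 67.1 FPKM (1.298-fold higher, 1.24 to 1.36). Whole-ovary values do not tell which cells held each transcript, and the part of Nr5a1 in the other ratios was not tested. Hsd3b5 had 0 reads in both ovaries.

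**Figure D2:**
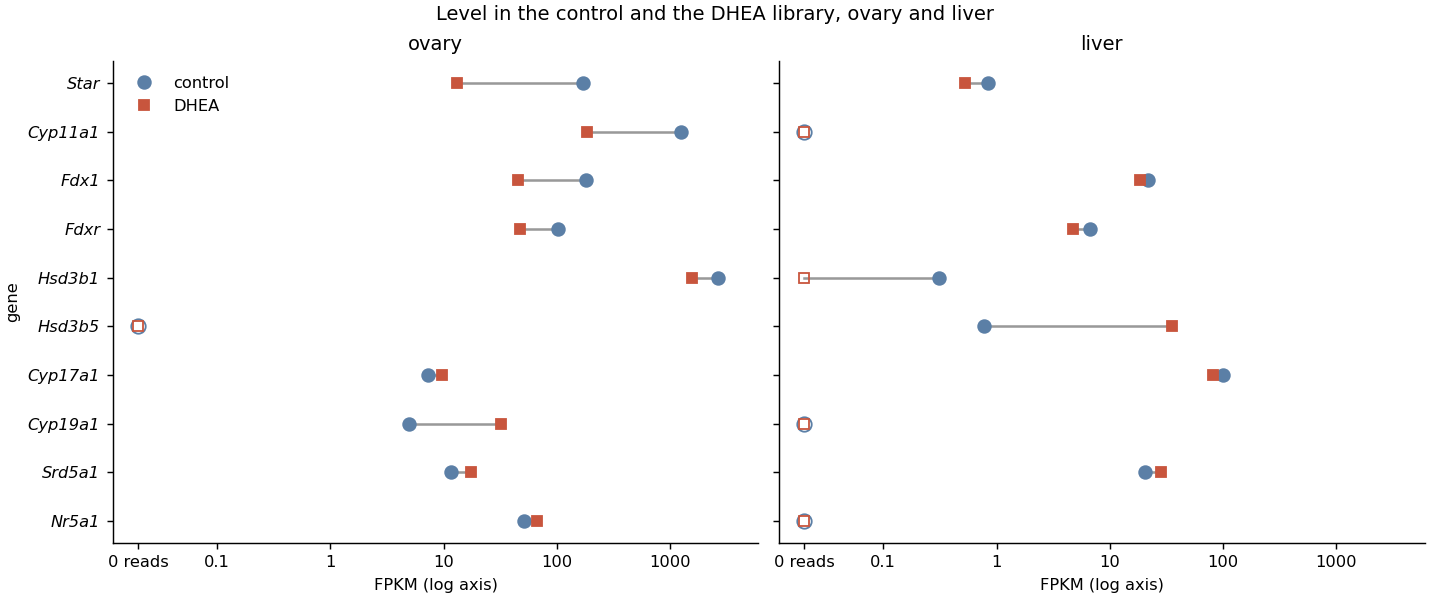
FPKM (log axis) of each member in ovary and liver, with circles for control, squares for DHEA and a line joining them. Members run from Star at the top, roughly along the pathway, with the transcription factor Nr5a1 last. Open marks are 0 reads. In ovary the marks of Star, Cyp11a1, Fdx1 and Fdxr shift to lower values and that of Cyp19a1 from 4.95 to 32.4 FPKM; in liver the long line is Hsd3b5, from 0.771 to 35.3 FPKM.

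In ovary, 9 members reached a pair mean of 5 FPKM. Of these 4 were lower, where 2.63% of 8549 genes were lower at the same limits, and 1 was higher, where 1.98% of genes were. The median log2 ratio of the 9 was -0.78, against 0.02 over all 8549 genes. The members were proposed with results of these libraries in view, so these counts are a description and not support for a direction.

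Markers of ovarian cell types moved in the same libraries. Corpus luteum markers summed to 1784 FPKM in control and 241 FPKM in DHEA, and 7 of the 9 tested were lower, with Lhcgr (1.45-fold) and Parm1 (1.15-fold) short of the limit. Timp1 was 13.01-fold lower and Sfrp4 11.7-fold lower, and none of the 10 markers was at 0 reads in either library. Granulosa cell markers summed to 1927 FPKM in control and 2485 FPKM in DHEA, with 2 of 14 higher and 0 lower. Of these, Fshr, through which follicle-stimulating hormone acts, was at 8.07 and 37.8 FPKM (4.69-fold higher), and Inhba, an activin and inhibin subunit, 2.36-fold higher. Short of the limit, Inhbb (1.54-fold) and Nap1l5 (1.18-fold) were lower, and the other granulosa cell markers were higher. Inha, at 679 and 914 FPKM, was the largest part of the sum. Theca and interstitial markers summed to 686 and 603 FPKM, with 1 of 5 lower (Mgarp). Fat cell markers summed to 182 and 167 FPKM, with 1 of 9 lower. Oocyte genes such as Zp3 and Gdf9 summed to 143 and 191 FPKM, and 0 of 6 were called. Adrenal cortex markers summed to 52.2 and 31.1 FPKM, with 1 of 2 tested lower (Mrap). Of these markers, Cyp21a1 and Cyp11b2 had 0 reads in both ovaries, and Cyp11b1 had 14 and 0. In whole tissue, fewer cells of a type and less RNA per cell cannot be told apart, and the part of these markers in the members' ratios was not tested.

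Other genes of the pathway were read from 6 lists, which overlap the marker lists in part (Akr1c18, Prlr, Scarb1, Fshr and Inhba are among the genes in both). Among 16 genes of cholesterol supply, all tested in ovary, 4 were lower and 0 were higher, with a median log2 ratio of -0.43. Among the lower ones were Hmgcs1 (3.40-fold), an early enzyme of cholesterol synthesis, Sqle (2.65-fold), a later enzyme of it, and Scarb1 (2.48-fold), the receptor for high-density lipoprotein. Among 6 tested steroid enzymes outside the members, 2 were lower and 1 was higher. Akr1c18, which inactivates progesterone, was at 425 and 29.6 FPKM (14.3-fold lower), and Hsd17b7, which makes oestradiol and also takes part in cholesterol synthesis, at 135 and 10.0 FPKM (13.5-fold lower). Hsd11b2, which inactivates glucocorticoids, was at 10.5 and 54.3 FPKM (5.17-fold higher). Among 5 tested electron donors of other enzymes, 0 were called, and Por, the donor for Cyp17a1 and Cyp19a1, was 1.47-fold lower.

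Among 11 tested regulators, Nr4a1, an early-response nuclear receptor, was 4.42-fold lower and Foxo1, a forkhead factor of granulosa cells, 2.19-fold higher. The other 9 lay between, with Gata4 1.96-fold and Nr5a2 1.59-fold higher. Among 11 tested hormone signals and receptors, 3 were higher and 3 were lower. Beside Fshr and Inhba, Prkar2b, a regulatory subunit of protein kinase A, was higher (2.45-fold). Sgk1 (4.30-fold), a kinase, Mrap (2.48-fold), an accessory protein of the corticotropin receptor, and Prlr (2.24-fold), the prolactin receptor, were lower. Of the other Hsd3b genes, only Nsdhl, a cholesterol synthesis enzyme of that family, reached 5 FPKM in ovary, and it was 1.33-fold lower.

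**Figure D3:**
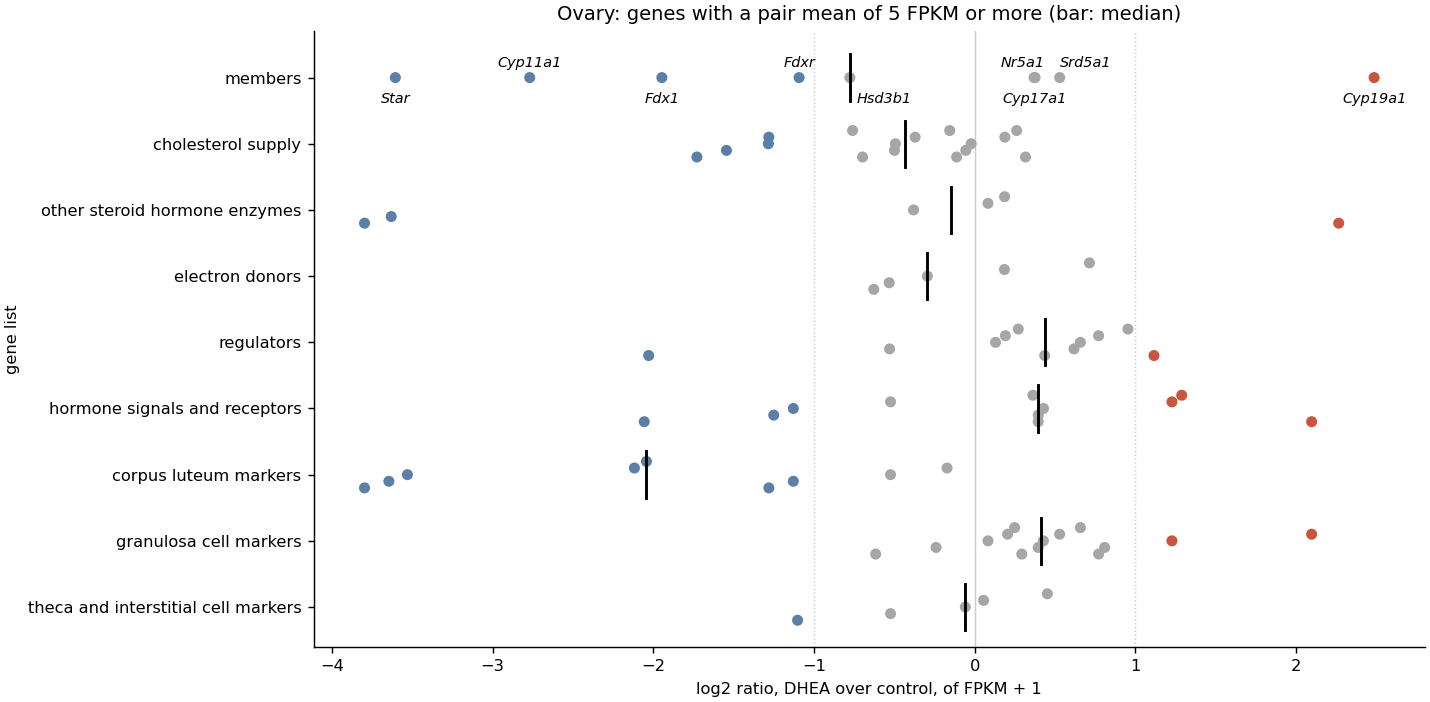
Log2 ratio of FPKM + 1, DHEA over control, in ovary for members, pathway lists and cell type markers that reached the 5 FPKM limit. Each point is a gene, the black bar is the list's median, and dotted lines are 2-fold. The members spread from Star at -3.61 to Cyp19a1 at 2.49, and the median of the corpus luteum markers is -2.04.

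Liver was the second tissue with several members. Hsd3b5, a liver form of the family that is known to be higher in male than in female mice and to act as a ketosteroid reductase, was at 0.771 FPKM (23 reads) in control and 35.3 FPKM (853 reads) in DHEA. It was 45.8-fold higher (30.3 to 72.6), and kidney, the one other tissue with a read, had 1 read in each library. Of 5 members tested in liver, 1 was higher and 0 were lower, where 1.65% and 2.31% of 4850 genes were. Cyp17a1 had its highest level of any tissue there, 100.4 FPKM in control and 81.7 FPKM in DHEA (1.23-fold lower, 1.18 to 1.28). Srd5a1 was at 20.3 and 28.1 FPKM (1.39-fold higher, 1.279 to 1.504), Fdx1 at 21.6 and 18.4 FPKM (1.17-fold lower) and Fdxr at 6.74 and 4.70 FPKM (1.43-fold lower). Star was below 1 FPKM, and Cyp11a1, Cyp19a1 and Nr5a1 had 0 reads in both livers.

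Other genes that are known to differ between male and female mouse liver differed in the same pair. Of 7 tested male-biased genes 6 were higher and 0 were lower, among them Mup7 (3.02 and 413 FPKM) and Cyp7b1, a steroid hydroxylase (7.05 and 29.6 FPKM, 4.19-fold). Of 9 tested female-biased genes 8 were lower and 0 were higher, among them Sult2a1, a sulfotransferase of DHEA with close copies in the genome, with 4241 reads in control and 1 in DHEA. Hepatocyte markers summed to 53676 and 52863 FPKM, and 0 of 10 were called. Of the other Hsd3b genes, Hsd3b3 (24.6 and 22.4 FPKM) and Hsd3b2 (9.14 and 5.38 FPKM) were read in liver and neither was called, so the difference of Hsd3b5 was not a difference of every copy counted. Among 14 tested genes of cholesterol supply, 3 were lower and 0 were higher. Hmgcs1 (3.47-fold) and Sqle (2.18-fold), both also lower in ovary, were among them.

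Spleen ranked after ovary for Star and Nr5a1 in control. Nr5a1 is also known from the endothelium of splenic vessels. Star was at 8.89 FPKM (622 reads) in control and 17.1 FPKM (1164 reads) in DHEA, 1.92-fold higher (1.74 to 2.12). Nr5a1 was at 3.06 FPKM (221 reads) and 6.33 FPKM (445 reads), 2.07-fold higher (1.75 to 2.44), with a pair mean just under 5 FPKM. Both were higher in the spleen of the DHEA group, without Cyp11a1 (12 and 6 reads) or Hsd3b1 (0 reads in both). Adrenal cortex markers summed to 11.9 FPKM in control and 15.7 FPKM in DHEA, with 1 of 8 tested and 0 called. Cyp21a1 had 40 and 82 reads and Mrap 28 and 62, while Mc2r and Cyp11b2 had 0 in both and Cyp11b1 had 1 and 0. Their part in the spleen ratios was not tested.

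In the 8 tissues besides ovary and liver, 10 combinations of member and tissue were tested and 0 were called, where 7.04% of 57877 combinations of gene and tissue were. With 10 combinations, that count is near the share over all genes and says nothing particular of the members. Several ratios under 2-fold had counting intervals away from 1. Beside Star in spleen, Srd5a1 in kidney came closest from above, at 6.004 and 10.8 FPKM (1.80-fold higher, 1.56 to 2.08). Fdx1 in uterus, at 7.75 and 4.45 FPKM (1.74-fold lower, 1.49 to 2.04), and in lung, at 13.7 and 8.91 FPKM (1.54-fold lower, 1.37 to 1.73), came closest from below. In heart (1.21-fold) and thymus (1.34-fold) Fdx1 was higher. Below the 5 FPKM limit, Star in uterus was at 2.71 and 4.51 FPKM (1.66-fold higher, 1.389 to 1.998), and Fdxr in brain at 4.65 and 2.96 FPKM (1.57-fold lower, 1.28 to 1.95). In the uterus pair, fat cell markers summed to 1417 FPKM in control and 237 FPKM in DHEA, with 9 of 10 lower, 0 higher and none at 0 reads. In the thymus pair the fat cell markers summed to 107 FPKM in control and 443 FPKM in DHEA, with 6 of 8 tested higher and 0 lower. Their part in the uterus and thymus ratios was not tested.

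**Figure D4:**
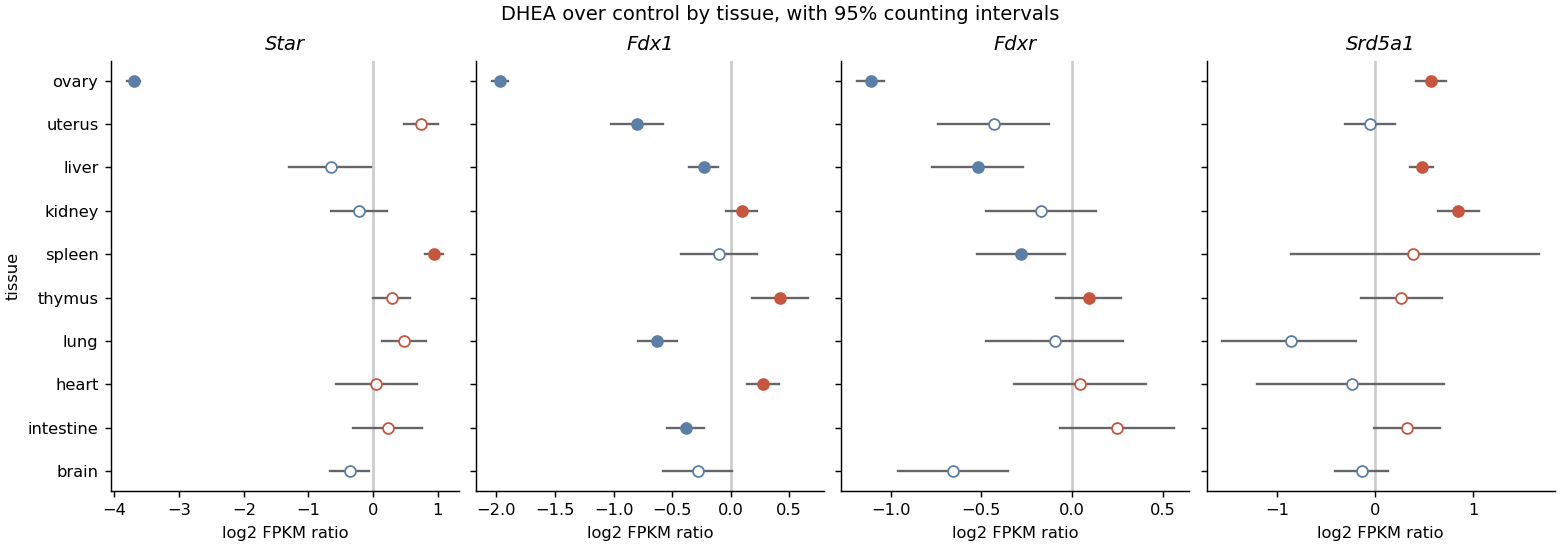
Log2 ratio of FPKM, DHEA over control, in each tissue for the 4 members with reads in all 20 libraries, with 95% counting intervals. Filled points reached the 5 FPKM limit. Star lies far below 0 in ovary and above 0 in spleen and uterus, and Fdxr is lower in 7 of 10 tissues.

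A change shared by the tissues was tested with limma, on log2(FPKM + 1) and with the tissue as a blocking term, over the 14833 genes whose mean was 1 FPKM or more. At an adjusted p of 0.05 or less, 0 genes were called (0%), with 1104 genes at an unadjusted p under 0.05. All 10 members were tested and 0 were called. Fdxr had the lowest p of them. Its log2 difference was -0.25 ± 0.11 (SE), and it was lower in 7 of 10 tissues. That count depends on how the libraries are scaled. The log2 ratio of Fdxr in lung was -0.07 here and 0.13 in the authors' deposited values. In heart it was 0.03, and -0.04 after rescaling of the libraries. The adjusted p in limma was 0.659. An exact sign-flip permutation of its 10 tissue differences gave p = 0.0469 (two-sided, unadjusted). The same permutation was run for all 10 members, and the next lowest p was 0.113, for Fdx1. For Fdx1 the limma difference was -0.34 ± 0.19 (SE), lower in 7 of 10 tissues (adjusted p 0.675). For Srd5a1 it was 0.16 ± 0.11 (SE), higher in 6 of 10 (adjusted p 0.687). Single tissues weighed on these values: without ovary, both Fdx1 and Fdxr were at -0.16, and without kidney Srd5a1 was at 0.096. Which tissues share an animal is not given, so the tissues may not be independent. Cyp11a1, Hsd3b1, Cyp19a1 and Nr5a1 reached the mean of 1 FPKM through ovary, and Hsd3b5 through liver.

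The authors' deposited table of log2 fold values holds 4 members, Star, Fdx1, Fdxr and Srd5a1. In ovary it gives -3.67 for Star. For Star in uterus it gives 0.97. The log2 ratio of FPKM + 1 there was 0.57, on another scale, with a pseudocount that the deposited values do not have. In each tissue the deposited table differs from the log2 FPKM ratio without a pseudocount by 1 constant, 0.029 in ovary and 0.238 in uterus. The log2 ratio of FPKM summed over all genes, control over DHEA, was 0.029 in ovary and 0.238 in uterus.

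Genes with the most similar pattern were named by Pearson's r of log2(FPKM + 1) over the 20 libraries, among 14634 genes that reach 5 FPKM in a library. The values describe shared tissue patterns, which for most members rest on the 2 ovary libraries. Hsd3b1 was most like Lhcgr (r = 0.999), the receptor for luteinizing hormone, then Serpina5 and Fbxw28. Cyp11a1 was most like Bpifb4 (r = 0.994), Txndc2 and Lhcgr. Cyp19a1 was most like Fshr (r = 0.997), Rhox8 and Rfpl4, each higher in the DHEA ovary than in the control ovary. Star was most like Runx2 (r = 0.923), Cemip and Sema3d, which were lower in the DHEA ovary, at 15.985 and 2.60 FPKM for Runx2. These genes were picked by r over the same libraries. A direction shared with Cyp19a1 or Star is therefore in part built in, and is not a separate result.

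Nr5a1 was most like Oosp1 (r = 0.988), an oocyte secreted protein, Oosp2 and Oas1e. Fdxr was most like Dppa3 (r = 0.940), Cyp11a1 and Amh. In liver, Hsd3b5 was most like Mup14 (r = 0.997), Mup7 and Mup12, major urinary protein genes that are near-identical to each other, and Cyp17a1 was most like Mug2 (r = 0.986), Mug-ps1 and Etnk2. Fdx1 was most like Me1 (r = 0.855), Idh1 and Prlr, and Srd5a1 was most like Agt (r = 0.858), Slc19a2 and Top1mt. For Fdx1 and Srd5a1, 0 genes passed r = 0.9. Among the other members with reads in all 20 libraries, 2 genes passed it for Star and 46 for Fdxr, and for Hsd3b1 and Cyp11a1 it was 107 and 98.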

How the data were processed

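The authors deposited FPKM values of 24826 genes in 20 libraries, and a table of log2 fold values of 11372 genes. Per the submitters' processing notes, HISAT2 2.0.5 and the builds hg38 and mm39 were used. The sources used here do not give the counting tool, annotation, strand setting or handling of multiply matching reads. The libraries are bulk per the series text, although descriptions also read "10x Genomics". Labels give lung, which the title leaves out.

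Values of each gene were whole multiples of 1 read (all 24826 genes, relative distance at most 1.07e-13), which gave the reads. They made up 98.1 to 99.5% of the FPKM denominators. Ratios used a pseudocount of 1 FPKM, folds none. The 57 rows of 28 repeated symbols were left out. Against 0 reads, a floor of 3 reads per library was used. Intervals are Clopper-Pearson. Across tissues, limma 3.58.1 (R 4.3.3) was used with Benjamini-Hochberg adjustment. The recovery and the fit were checked on simulated data. Members and lists were chosen with earlier results of these data known. Every member was named. From the lists, genes called in ovary, liver or brain were named, at most 4 per direction, and for each member the 3 most similar genes. Other list and marker genes, such as Por, Gata4, Nr5a2, Hsd3b2 and Hsd3b3, were picked after their values were seen. Some genes counted in the cholesterol supply list are not reported by name here. Alternatives changed the pseudocount, the filter, the scaling and the tissues included. RefSeq promoters are of GRCm38.p6, not of the authors' build.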

Additional observations from a re-analysis of the deposited data

Results flagged for a closer look

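Star differed in opposite directions between tissues. It was 13.03-fold lower in the DHEA library in ovary, 1.92-fold higher in spleen and 1.66-fold higher in uterus. Each ratio was at least 1.5-fold, with a counting interval away from 1 and a pair mean of at least 1 FPKM. It was the one member with such a pair of tissues. With 1 library per tissue and treatment, the difference between tissues was not tested.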

How the results depend on the processing

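The 4 lower and 2 higher members were counted again with a pseudocount of 0.1 or 5 FPKM, without the filter, with a pair mean of 1 FPKM, after rescaling and after centring, and each count stayed within 1.5 times. The count of higher members was 0 in the authors' deposited table, in ovary and over all tissues, because Cyp19a1 and Hsd3b5 are not among the 4 members it holds. Of 280 ratios recomputed for 60 member and tissue pairs, 17 moved beyond the counting interval. Among these were 7 of the 27 ratios recomputed for the 6 called members, and 0 of the 27 reversed. Reversal was counted for called members only. Some uncalled ratios near 0 changed sign, such as Fdxr in lung. The log2 ratio of Hsd3b5 in liver ranged from 2.80 to 5.34 and that of Cyp19a1 in ovary from 1.91 to 2.68, lowest with a pseudocount of 5 FPKM. Across tissues in limma, leaving out 1 tissue pair in turn called 0 to 1 genes, the 1 without intestine, and 0 members. The log2 difference of Star ran from -0.34 without spleen to 0.16 without ovary, and that of Cyp17a1 from -0.071 without ovary to 0.0031 without liver. The tissue block pairs the libraries of a tissue, and without it 0 genes were called. At 5 FPKM, a gene of 2 kb rests on 134 to 209 reads. Replicate libraries within a tissue were not analysed here.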

Other observations

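Of the steroid enzymes outside the members, 2 of 5 tested were higher in uterus and 2 of 7 in kidney, and 0 were lower in either. Over all genes, 7.85% of 7965 were higher in uterus and 1.12% of 6985 in kidney. The shares lower were 10.1% in uterus and 0.515% in kidney. With so few enzymes tested, a count of 0 lower is near those shares and gives no direction. The genes below were singled out after their values were seen. In uterus Cyp21a1, a steroid hydroxylase of the adrenal cortex, had 2 reads in control and 1611 reads in DHEA (0.058 and 36.8 FPKM). Of the adrenal cortex markers, 2 of 8 were tested in uterus and Cyp21a1 was the 1 called. Among the others, Cyp11b1 had 0 and 30 reads, Cyp11b2 0 in both, Mc2r 19 and 2, Mrap 170 and 18, and Akr1b7 13 and 98. Cyp11a1 had 2 and 0 reads there and Hsd3b1 0 in both. Hsd11b2, which inactivates glucocorticoids, was 3.45-fold higher in the same uterus (65.7 and 226 FPKM) and 5.17-fold higher in ovary.

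In kidney, Cyp7b1, a hydroxylase that acts on DHEA, was at 1.20 and 170 FPKM (142-fold higher, 106.7 to 194). Akr1c18 was at 47.8 and 198 FPKM (4.15-fold higher), whereas in ovary it was 14.3-fold lower. Hsd3b2 was at 22.2 and 48.4 FPKM (2.18-fold higher), while its relatives Hsd3b9 (50.3 and 47.2 FPKM) and Hsd3b4 (14.5 and 15.8 FPKM) were not called. Cyp21a1 had 1 and 0 reads in kidney. The fat cell markers that differed between the uterus libraries (1417 and 237 FPKM in sum, 9 of 10 lower) apply to all uterus values here, and their part was not tested. In uterus, 3 of 16 tested genes of cholesterol supply were higher and 3 were lower, where 7.85% and 10.1% of all genes were. Their median log2 ratio was -0.15. Sqle, an enzyme of cholesterol synthesis, was 6.56-fold higher there, whereas it was lower in ovary and liver. These differences between tissues were not tested. In brain, Hsd11b1, which reactivates glucocorticoids, was 2.31-fold lower, and Nr4a2 (3.10-fold) and Pde8b (2.27-fold) were higher. The SD of the log2 ratio over all 7596 tested genes was 0.73 in brain. The brain pair also differed in marker genes. The hepatocyte list summed to 1220 and 210 FPKM. Only 1 of its 10 genes was tested, and it was lower, so the sums rest mostly on 1 gene. In the DHEA brain 5 of the 10 had 0 reads. The theca and interstitial list summed to 70.2 and 16.1 FPKM, with 2 of its 8 genes tested and 2 lower. With so few genes read, these sums do not identify a cell type. The part of these genes in the brain ratios was not tested.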
